A study of Mus musculus with 15 samples.

Results

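The dorsal part of the region around the dorsal aorta was compared between E9.5 and E10.5 of mouse development. The tissue, labelled AoD, was dissected from the aorta-gonad-mesonephros (AGM) region of C57BL/6 embryos. The groups are E9 AoD (E9.5) and E10 AoD (E10.5), with 3 libraries each, 6 of the 15 libraries of the series. The labels name no mutation, transgene or treatment in either group, and the tissue was neither sorted nor cultured. Each library came from tissue pooled from 15 to 34 embryos in separate experiments, so that n counts pools and not embryos. Expression is given in RPM, in which the reads of a gene are scaled to a common total of assigned reads per library, with no adjustment for gene length. Every gene with at least 0.5 RPM in at least 1 of the 6 AoD libraries was included, which left 17622 genes of the 28876 in the table, 14546 of them protein-coding. The depth, worked out from the steps between low values, was 37.2 to 46.8 M reads in E9 AoD and 39.0 to 42.3 M reads in E10 AoD.

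The AGM region is the site at which the definitive hematopoietic stem cells of the mouse emerge from the wall of the dorsal aorta. Dorsal to the vessel lie the notochord, the sclerotome of the somites and, above them, the neural tube. Neural crest cells that migrate ventrally settle beside the aorta and form the sympathetic ganglia, while mesenchyme around the endothelium takes on a smooth muscle fate. Wnt and FGF signals and caudal Hox genes are used where the body axis is still being laid down at the tail end, and they give way to differentiation programmes as a level of the trunk matures.

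Transcripts of the vessel itself were present at both stages. Pecam1, an adhesion molecule of endothelial junctions, was measured at 42.7, 45.6 and 36.9 RPM in the E9 AoD and 103, 94.9 and 106 RPM in the E10 AoD libraries. Cdh5, which encodes VE-cadherin, was measured at 105, 124 and 87.6 RPM in the E9 AoD and 222, 215 and 230 RPM in the E10 AoD libraries. All 23 endothelial genes listed were detected in the tissue. Shh, of notochord and floor plate, was detected too, but at E9.5 the ventral part (AoV) also held it, at 42.1 ± 8.5 RPM (SD, n = 3). The sclerotome gene Pax1 was detected as well, and the AoD values of both genes are given with their groups. The label of a dorsal aortic piece therefore covers aortic endothelium together with neighbouring axial tissue, and in such bulk tissue fewer cells of a type and less RNA per cell cannot be told apart.

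Between E9.5 and E10.5, 2245 of the 17622 genes (12.7%) changed at least 2-fold with an adjusted p under 0.05 (limma on log2(RPM + 0.1), Benjamini-Hochberg adjustment, two-sided). Of these, 1543 (8.76%) were higher at E10.5 and 702 (3.98%) were lower. These shares are the background against which the counts of the gene groups are to be read. The groups were chosen with earlier results of these data known, so an excess over these shares is a description and not a test. Without the fold threshold 10500 genes (59.6%) passed, many of them with small shifts. All 3 E10 AoD libraries lay above all 3 E9 AoD libraries for 5630 genes (31.9%) and below them for 5342 (30.3%). Among the called genes the groups did not overlap for 1538 of the 1543 higher and 695 of the 702 lower ones. The median log2 fold change of all genes was -0.004, of the called genes 1.51 upward and -1.56 downward, and a size of 3 or more was reached by 96 genes upward and 72 downward.

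**Figure D1:**
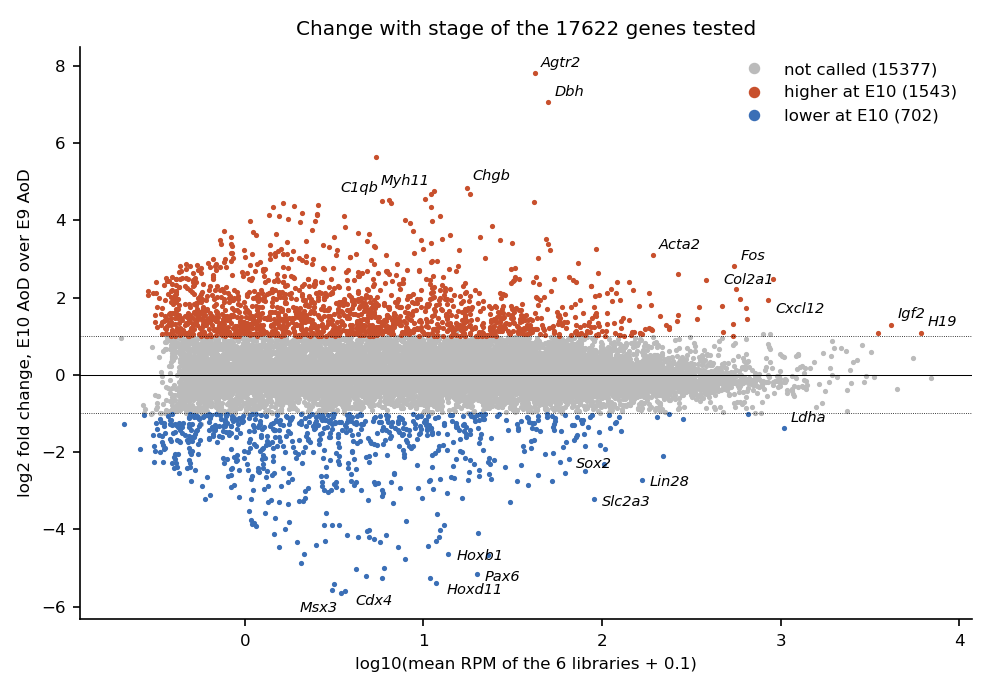
The log2 fold change of E10 AoD over E9 AoD (vertical axis) is plotted against the log10 of the mean RPM of the 6 AoD libraries plus 0.1 (horizontal axis) for each of 17622 genes, with dotted lines at a 2-fold change. The 1543 genes higher at E10.5 (red) and the 702 lower (blue) lie at all levels of expression, and Agtr2 and Dbh stand above all others.

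Libraries of a group differed in ways that touch some of the gene groups. E9 AoD replicate 1 had the highest E9 levels of immediate early, globin and mitochondrial transcripts. In E9 AoD replicate 3 neural tube genes were highest and endothelial, macrophage and smooth muscle genes were lowest. E10 AoD replicate 2 had long transcripts at higher levels, by a median of 0.15 on the log2 scale against its group for the longest genes, and posterior Hox genes at lower levels. Mitochondrial transcripts took 1.5% to 2.61% of the reads of E9 AoD and 2.42% to 3.72% of those of E10 AoD. Libraries were not stranded, so reads of overlapping genes cannot be told apart. Of the exons of Pax6, Pdgfa, Fgf15, Ctgf, Dll1, Slc16a3, Foxb1 and Id4, 27.9%, 26.1%, 26.4%, 22.9%, 20.5%, 15.6%, 14% and 10.3% overlap another gene. Of the 50-base windows of Eno1 and Hspb1, 45.3% and 36.7% occur in another gene too, and other overlaps are given beside the gene. Each count and each named gene was also recomputed without each library. Where this changes a call or moves a count by more than 1.5 times, the library is named beside the result.

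**Figure D2:**
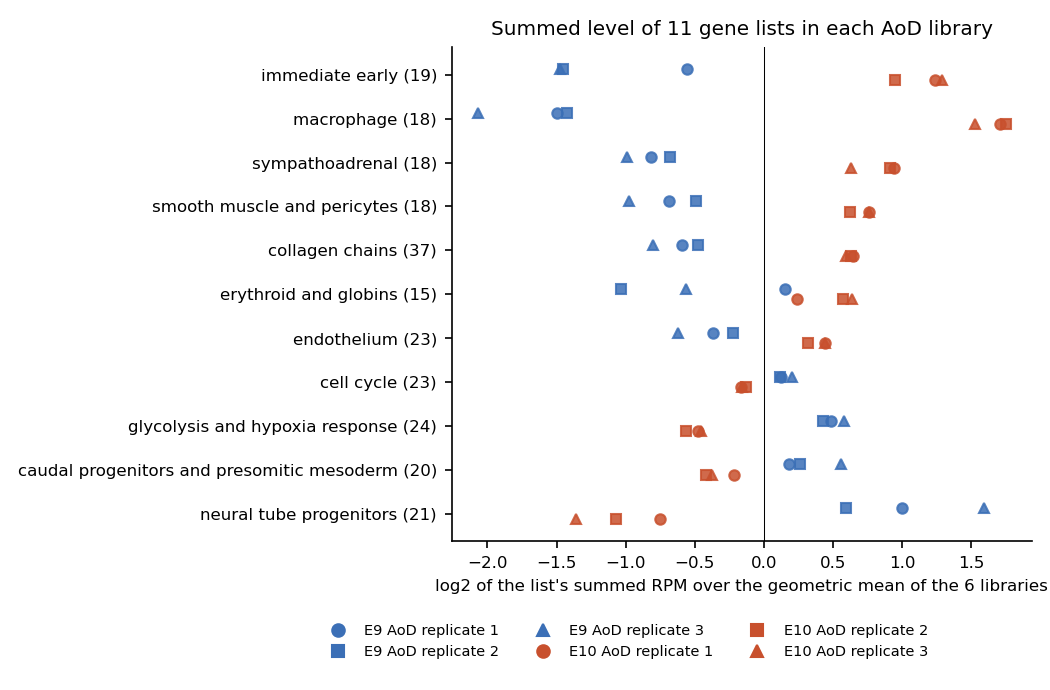
For 11 gene lists (number of members in brackets) the summed RPM of each AoD library is shown as the log2 of its ratio to the geometric mean of the 6 libraries, with blue symbols for E9 AoD and red symbols for E10 AoD. The stages do not overlap in any of the 11 lists, and they come closest for the globin list, through E9 AoD replicate 1 and E10 AoD replicate 1.

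The strongest rises were those of a peptide hormone receptor and of an enzyme of noradrenaline synthesis. Agtr2, the type 2 angiotensin receptor (ENSMUSG00000068122, chromosome X, 21061670 to 21066290, plus strand), had the highest fold change of all named genes (this and the other gene positions are on NCBIM37). It was measured at 0.295, 0.296 and 0.214 RPM in the E9 AoD and 90.3, 94.2 and 65.9 RPM in the E10 AoD libraries (log2 fold change 7.82, SE 0.22, adjusted p = 1.11e-11). Dbh, dopamine beta-hydroxylase, which makes noradrenaline from dopamine (ENSMUSG00000000889, chromosome 2, 27020753 to 27038720, plus strand), was measured at 0.787, 0.725 and 0.428 RPM in the E9 AoD and 114, 103 and 79.4 RPM in the E10 AoD libraries (log2 fold change 7.07, SE 0.201, adjusted p = 1.11e-11). For both genes the groups are separated by a wide gap, with the lowest E10 library far above the highest E9 library.

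Of 18 sympathoadrenal genes, 13 rose and none fell, with a median log2 fold change of 1.73. Transcription factors of the noradrenergic fate were among them. Phox2a, a homeobox factor, rose from 1.25 ± 0.233 to 23.2 ± 4.7 RPM (SD, n = 3), a log2 change of 4.11 (adjusted p = 7.57e-10), where 26.1% of its exons overlap Inppl1 on the opposite strand and the libraries were not stranded. Insm1, a zinc finger regulator of the same lineage, rose from 9.52 ± 2.22 to 55.1 ± 5.1 RPM (SD, n = 3). Hand2, a factor of sympathetic precursors, rose by 1.48 (adjusted p = 4.97e-07) on the log2 scale, while its relative Hand1 was at 14.7, 8.36 and 4.17 RPM in E9 AoD and 9.07, 8.44 and 5.38 RPM in E10 AoD, and the groups overlapped.

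Several genes for catecholamine synthesis and storage rose with the factors, while Ddc, another gene of the list, was not called. Th, tyrosine hydroxylase, the rate-limiting enzyme of catecholamine synthesis, was at 1.92, 1.72 and 1.67 RPM in E9 AoD and at 20.7, 18.9 and 14.5 RPM in E10 AoD, that is a log2 fold change of 3.26 (adjusted p = 1.13e-09). Chgb, chromogranin B of the secretory granule, was measured at 1.01, 0.994 and 1.22 RPM in the E9 AoD and 37.7, 36 and 27 RPM in the E10 AoD libraries (log2 fold change 4.83, SE 0.188, adjusted p = 1.94e-10). Slc18a1, a vesicular monoamine transporter, rose by 1.39 (adjusted p = 4.17e-06) on the log2 scale. E10 AoD replicate 3 was the lowest of its group for Th, Dbh, Chgb and Slc18a1, yet remained above every E9 library. Of 11 genes of the neural crest and Schwann cell precursors 4 rose, among them Sox10 (1.18) and Ngfr (1.03, both log2 fold changes), and none fell. Ngfr had 0.92 without E10 AoD replicate 2 and 0.998 without E9 AoD replicate 1, both just under the threshold. Sox10, the factor that maintains glial and crest precursors, was measured at 23.2, 24.7 and 30.2 RPM in the E9 AoD and 60.2, 56.6 and 59 RPM in the E10 AoD libraries.

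Genes of sensory neurons went both ways, with 5 of 10 higher and 3 lower. Tlx3, a homeobox gene of peripheral neurons, rose from 0.388 ± 0.0442 to 5.73 ± 0.666 RPM (SD, n = 3) and Prph, the intermediate filament peripherin, rose from 0.358 ± 0.162 to 3.48 ± 0.542 RPM (SD, n = 3). Pou4f1, which marks sensory ganglia and dorsal interneurons, fell from 4.89 ± 2.45 to 0.909 ± 0.199 RPM (SD, n = 3). Tlx2, a homeobox gene of sympathetic and enteric neurons, was among the leading rises, at 1.11, 1.59 and 1.13 RPM in the E9 AoD and 35.8, 37.2 and 32 RPM in the E10 AoD libraries (log2 fold change 4.69, SE 0.172, adjusted p = 1.07e-10).

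Macrophage genes had the highest median of the 55 gene lists. Of 18 genes 16 rose and none fell, with a median log2 fold change of 3.59. C1qb, a chain of complement C1q (ENSMUSG00000036905, chromosome 4, 136436044 to 136442102, minus strand), was measured at 0.492, 0.457 and 0.257 RPM in the E9 AoD and 11.9, 11.8 and 9.68 RPM in the E10 AoD libraries (log2 fold change 4.51, SE 0.208, adjusted p = 6.87e-10). Mrc1, the mannose receptor CD206, was measured at 1.03, 1.29 and 0.577 RPM in the E9 AoD and 20.5, 23.4 and 18.7 RPM in the E10 AoD libraries (log2 fold change 4.35, SE 0.232, adjusted p = 2.12e-09). Csf1r, the receptor for macrophage colony-stimulating factor, rose from 0.978 ± 0.397 to 15.6 ± 0.95 RPM (SD, n = 3), with 16.7% of its exons overlapping Hmgxb3. Cx3cr1, the fractalkine receptor, rose from 0.859 ± 0.337 to 14.7 ± 0.872 RPM (SD, n = 3), and the groups did not overlap for any of these. F13a1, the coagulation factor XIII A chain that macrophages and platelets make, rose by 4.45 (adjusted p = 6.63e-11) on the log2 scale. The summed level of the macrophage list was 12, 12.6 and 8.08 RPM in E9 AoD and 111, 114 and 98 RPM in E10 AoD, lowest in E9 AoD replicate 3. Lyz1, a lysozyme, was at or below the level of 3 reads in every E9 AoD library and was at least 5.34-fold higher in E10 AoD. The same held for the chemokines Ccl2 (at least 9.65-fold) and Ccl4 (at least 7.42-fold). Of the 50-base windows of the Lyz1 exons, 16% are shared with other genes.

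Blood genes beyond macrophages rose in part. Of 18 hematopoietic genes, 8 rose and none fell, and the strongest were pan-leukocyte genes that macrophages also express. Ptprc, which encodes CD45, was measured at 0.467, 0.376 and 0.321 RPM in the E9 AoD and 4.48, 4.89 and 5.35 RPM in the E10 AoD libraries (log2 fold change 3.37, SE 0.144, adjusted p = 3.73e-10). Sfpi1, which encodes the myeloid factor PU.1, rose from 0.53 ± 0.11 to 5.81 ± 0.34 RPM (SD, n = 3). Runx1, required for blood to form from hemogenic endothelium, was measured at 3.17, 4.3 and 2.78 RPM in the E9 AoD and 16.3, 13.9 and 17 RPM in the E10 AoD libraries (log2 fold change 2.19, SE 0.143, adjusted p = 1.31e-08). Gfi1, a repressor acting downstream of Runx1, was at 0.541, 0.591 and 0.235 RPM in E9 AoD and at 2.02, 1.33 and 2.49 RPM in E10 AoD, a log2 change of 1.91 (adjusted p = 0.00012). Mecom, a stem cell factor also found in endothelium, rose from 53.7 ± 6.79 to 127 ± 6.51 RPM (SD, n = 3). Itga2b, an early marker of blood and platelets, was at 6.19, 4.14 and 3.85 RPM in E9 AoD and 6.23, 6.9 and 7.79 RPM in E10 AoD, and Gfi1b was at 2.83, 1.91 and 1.95 RPM and 3.56, 3.44 and 4.28 RPM, short of the threshold. Macrophage transcripts moved with these genes, and their part in the rise of Ptprc, Sfpi1 and Runx1 was not tested.

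Platelet genes were called in 6 of 8 cases, all of them higher, among them Pf4, platelet factor 4, which rose from 1.87 ± 0.237 to 4.18 ± 0.06 RPM (SD, n = 3), and Itgb3, integrin beta 3, which rose from 9.29 ± 2.1 to 21.2 ± 1.57 RPM (SD, n = 3). The other called ones were at low levels, and 3 of 8 were called after quantile normalization and 1 of 8 at a pseudocount of 1 RPM. Of 15 erythroid genes 2 were called higher. Hbb-b1, the adult beta globin, was measured at 31.8, 13.9 and 20.3 RPM in the E9 AoD and 95.5, 138 and 115 RPM in the E10 AoD libraries, a log2 change of 2.46 (adjusted p = 0.000307). With 58.3% of the 50-base windows of its exons shared with other genes, its reads could be divided among the globins. Hbb-y, an embryonic globin, was at 3410, 1500 and 2060 RPM in E9 AoD and 3880, 5080 and 5180 RPM in E10 AoD, a log2 change of 1.09 (adjusted p = 0.0455) that was no longer called without any single library other than E9 AoD replicate 1. The summed level of the list was 9800, 4320 and 5970 RPM in E9 AoD and 10400, 13100 and 13700 RPM in E10 AoD. E9 AoD replicate 1 held about as much as the lowest E10 library, without it 9 of the 15 genes were called, and without any other library or after quantile normalization 1 was.

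Smooth muscle genes rose together. Of 18 smooth muscle and pericyte genes, 13 rose and none fell, with a median log2 fold change of 1.72. Acta2, smooth muscle alpha-actin (ENSMUSG00000035783, chromosome 19, 34315580 to 34329826, minus strand), was measured at 48.1, 49.4 and 26.6 RPM in the E9 AoD and 372, 287 and 373 RPM in the E10 AoD libraries (log2 fold change 3.10, SE 0.239, adjusted p = 6.27e-08). Myh11, the smooth muscle myosin heavy chain (ENSMUSG00000018830, chromosome 16, 14194620 to 14291501, minus strand), was measured at 0.629, 1.29 and 0.446 RPM in the E9 AoD and 21.9, 22.3 and 22 RPM in the E10 AoD libraries (log2 fold change 4.75, SE 0.258, adjusted p = 2.46e-09). Tagln, transgelin, an actin-binding protein, rose from 54.8 ± 17.7 to 242 ± 37.5 RPM (SD, n = 3). E9 AoD replicate 3 was lowest for all of them, and the stages did not overlap. Myocd, the coactivator that drives the contractile programme, rose from 2.65 ± 1.12 to 7.71 ± 1.01 RPM (SD, n = 3). Pericyte genes took part as well, with Cspg4, which encodes NG2, at 3, 4.38 and 2.27 RPM in the E9 AoD and 34.2, 42.5 and 38.2 RPM in the E10 AoD libraries and Kcnj8, a channel subunit of mural cells, at 0.0737, 0.107 and 0 RPM in the E9 AoD and 2.2, 2.36 and 1.28 RPM in the E10 AoD libraries. Actg2, the enteric-type smooth muscle actin, rose by 4.54 (adjusted p = 2.09e-09) on the log2 scale. Ndufa4l2, a mitochondrial protein found in pericytes, rose from 0.736 ± 0.193 to 21 ± 2.82 RPM (SD, n = 3), a log2 change of 4.67 (adjusted p = 6.63e-11).

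The endothelium itself changed by less. Of 23 endothelial genes 8 rose and none fell, with a median log2 fold change of 0.81, and 22 of 23 had all E10 libraries above all E9 libraries. Pecam1 and Cdh5, whose levels are given above, had log2 fold changes of 1.28 (adjusted p = 1.95e-09) and 1.09 (adjusted p = 1.85e-07). Clec14a, a lectin-like receptor of endothelial cells, was measured at 7.79, 8.46 and 6.24 RPM in the E9 AoD and 24.2, 19.9 and 26.7 RPM in the E10 AoD libraries (log2 fold change 1.64, SE 0.113, adjusted p = 2.31e-08). Kdr, the VEGF receptor 2, was at 87.4, 105 and 83.4 RPM in E9 AoD and 109, 112 and 117 RPM in E10 AoD, a log2 change of 0.30 (adjusted p = 0.0077), under the threshold. E9 AoD replicate 3 was lowest for most of the list, and without it 4 of 23 were called, with log2 fold changes of 0.96 for Cdh5, 0.92 for Tek and 0.93 for Sox7.

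Some arterial genes showed larger steps. Gja5, the gap junction protein connexin 40, was measured at 38.2, 46.7 and 25.1 RPM in the E9 AoD and 149, 138 and 153 RPM in the E10 AoD libraries (log2 fold change 2.04, SE 0.174, adjusted p = 1.7e-07). Gja4, connexin 37, rose from 14.1 ± 3.76 to 47.7 ± 1.82 RPM (SD, n = 3). Bmx, a kinase of arterial endothelium, rose from 0.657 ± 0.3 to 4.68 ± 0.606 RPM (SD, n = 3). Efnb2 and Dll4, the arterial ephrin and Notch ligands, rose by 1.09 (adjusted p = 8.54e-09) and 1.03 (adjusted p = 9.12e-08) on the log2 scale, so that 5 of 14 arterial genes rose and none fell. Dll4 had 0.98 without E10 AoD replicate 3 and 0.95 without E9 AoD replicate 3. Among 8 venous and lymphatic genes, Lyve1, a hyaluronan receptor, was the gene called, rising from 0.777 ± 0.305 to 2.14 ± 0.255 RPM (SD, n = 3), and at a pseudocount of 1 RPM none was. Nr2f2, the factor of venous identity, was at 175, 195 and 163 RPM in E9 AoD and 134, 139 and 143 RPM in E10 AoD and Ephb4, the venous ephrin receptor, at 114, 124 and 99.5 RPM and 157, 167 and 138 RPM, both under the 2-fold threshold.

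Sclerotome and cartilage genes rose as well. Pax1, which marks ventral sclerotome (ENSMUSG00000037034, chromosome 2, 147187661 to 147219031, plus strand), was measured at 67.3, 65.4 and 69.9 RPM in the E9 AoD and 300, 360 and 236 RPM in the E10 AoD libraries (log2 fold change 2.12, SE 0.232, adjusted p = 2.17e-06). Pax9, its paralog, rose from 18.7 ± 2.01 to 76.2 ± 9.49 RPM (SD, n = 3). Sox9, the chondrogenic master factor, was measured at 53.9, 51.4 and 63.4 RPM in the E9 AoD and 157, 145 and 107 RPM in the E10 AoD libraries (log2 fold change 1.26, SE 0.145, adjusted p = 3.54e-06). In all, 7 of 13 sclerotome genes rose and 1 fell. Scx and Tbx18, of tendon precursors and somite polarity, rose by 1.64 (adjusted p = 9.16e-06) and 1.01 (adjusted p = 6.72e-06) on the log2 scale, Tbx18 with 0.97, 0.94 and 0.91 without E10 AoD replicate 2, E9 AoD replicate 1 and E9 AoD replicate 3.

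Of 15 cartilage genes, 12 rose and none fell, with a median of 2.03. Acan, aggrecan, the main cartilage proteoglycan, was measured at 1.43, 1.34 and 0.898 RPM in the E9 AoD and 18.7, 27.3 and 16.8 RPM in the E10 AoD libraries (log2 fold change 3.98, SE 0.196, adjusted p = 1.08e-09). Col2a1, the type II collagen chain, was measured at 250, 244 and 230 RPM in the E9 AoD and 981, 995 and 856 RPM in the E10 AoD libraries (log2 fold change 1.96, SE 0.0807, adjusted p = 2.97e-10). Chains of the minor cartilage collagens, Col9a2, Col9a3 and Col11a2, rose by 2.94, 3.17 and 1.86 on the log2 scale. These chains also count among the collagens, of which 22 of 37 rose and 1 fell with a median of 1.36. Col5a3, a minor fibrillar chain, rose from 3.1 ± 0.995 to 44.9 ± 7.52 RPM (SD, n = 3) and the fibrillar chain Col1a1 rose from 112 ± 36.9 to 312 ± 14.2 RPM (SD, n = 3). Col4a6, of epithelial basement membrane, was the chain that fell, at 16.2, 16.5 and 16.5 RPM in the E9 AoD and 5.07, 5.7 and 6.11 RPM in the E10 AoD libraries (log2 fold change -1.53, SE 0.0792, adjusted p = 1.62e-09). Col12a1 was at 9.29, 10.6 and 7.4 RPM in E9 AoD and 57.9, 117 and 60.1 RPM in E10 AoD, with E10 AoD replicate 2, the library with higher long transcripts, above the others.

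Elastic fibre and proteoglycan genes followed. Of 25 matrix glycoproteins and proteoglycans 14 rose and none fell, with 8 called at a pseudocount of 1 RPM. Eln, elastin, the core of the elastic lamellae of arteries, was measured at 1.67, 1.29 and 1.3 RPM in the E9 AoD and 10.2, 11.3 and 7.08 RPM in the E10 AoD libraries (log2 fold change 2.65, SE 0.154, adjusted p = 4.45e-09). Fbln5, which assembles elastic fibres, rose from 1.92 ± 0.51 to 11.9 ± 1.99 RPM (SD, n = 3). Lum, the collagen-binding proteoglycan lumican, rose from 19.5 ± 4.55 to 111 ± 2.65 RPM (SD, n = 3). The summed level of the list was 2190, 2710 and 2010 RPM in E9 AoD and 3470, 4390 and 3610 RPM in E10 AoD. Genes of the dermomyotome and myotome list were divided. Pax3 and Lbx1 fell, Pax3 at 57.7, 56 and 88.6 RPM in the E9 AoD and 7.4, 9.71 and 10.2 RPM in the E10 AoD libraries. Pax3 was highest in E9 AoD replicate 3, as were the neural tube genes, and which tissue held Pax3 and Lbx1 was not tested. Actc1, the cardiac actin that early skeletal muscle uses, rose and was measured at 40.6, 44.7 and 32 RPM in the E9 AoD and 207, 192 and 213 RPM in the E10 AoD libraries, and Myod1, the myogenic factor, rose from 0.586 ± 0.115 to 2.36 ± 1.28 RPM (SD, n = 3), so that 5 of 16 dermomyotome and myotome genes rose and 6 fell. At a pseudocount of 1 RPM 3 of the rises were called.

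**Figure D3:**
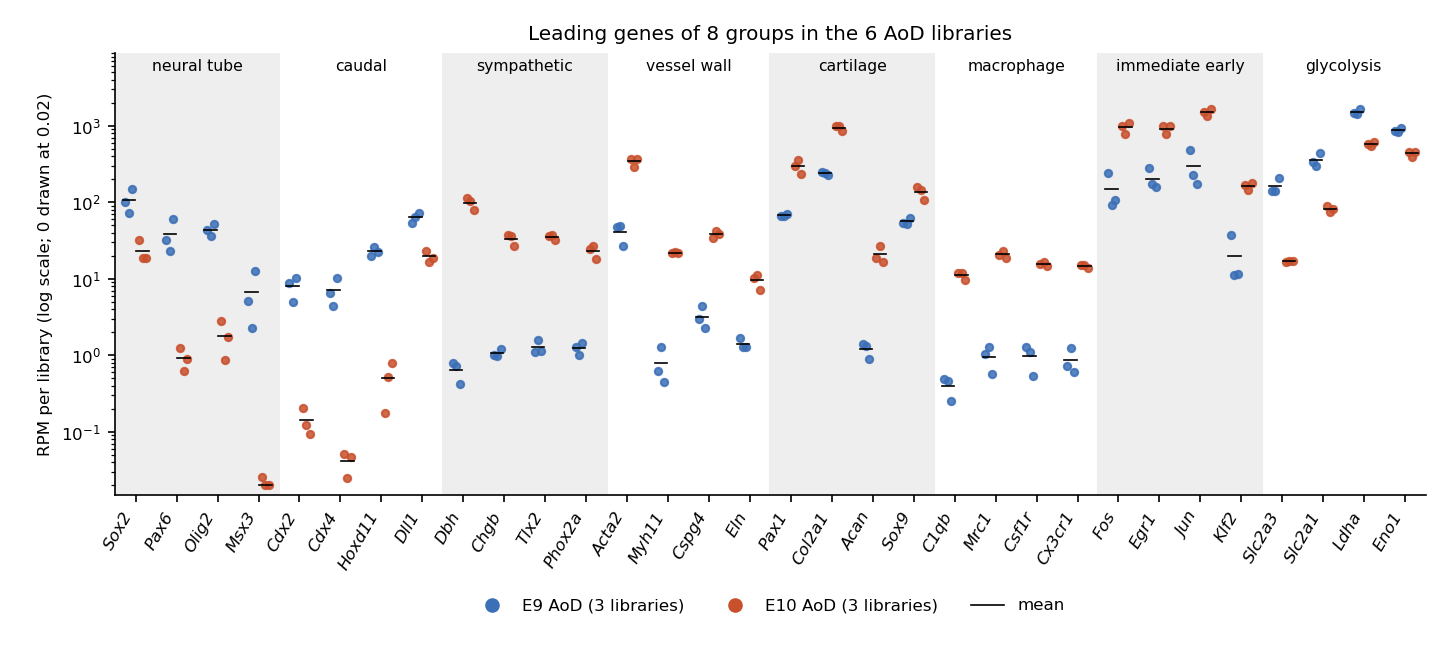
RPM of 32 named genes in each of the 6 AoD libraries (log axis, 0 drawn at 0.02), with E9 AoD in blue, E10 AoD in red and a bar at the mean of 3 libraries. Neural tube and caudal genes are lower at E10.5, sympathetic, vessel wall, cartilage and macrophage genes are higher, and for none of the genes drawn do the stages overlap.

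The deepest falls were in the neural tube. Of 21 genes of neural progenitors 17 fell and none rose, with a median log2 fold change of -3.20. Sox2, the pan-neural progenitor factor (ENSMUSG00000074637, chromosome 3, 34548927 to 34551383, plus strand), was measured at 100, 73.3 and 149 RPM in the E9 AoD and 32.4, 19 and 18.6 RPM in the E10 AoD libraries (log2 fold change -2.19, SE 0.228, adjusted p = 1.34e-06). Pax6, of intermediate progenitor domains (ENSMUSG00000027168, chromosome 2, 105509053 to 105543317, plus strand), was measured at 32.2, 23.4 and 60.3 RPM in the E9 AoD and 1.26, 0.63 and 0.897 RPM in the E10 AoD libraries (log2 fold change -5.17, SE 0.297, adjusted p = 3.96e-09). Olig2, which specifies motor neuron progenitors, was measured at 43.9, 36.8 and 51.4 RPM in the E9 AoD and 2.82, 0.878 and 1.73 RPM in the E10 AoD libraries (log2 fold change -4.66, SE 0.339, adjusted p = 3.74e-08). Genes of dorsal and of ventral progenitors fell. The dorsal genes Msx3, Olig3 and Wnt1, the last a roof plate ligand, were at or below the level of 3 reads in every E10 AoD library and at least 87.6-fold, 79.5-fold and 53-fold lower. Without E9 AoD replicate 3 these bounds were 48.1-fold, 45.7-fold and 29.1-fold. The ventral factor Nkx6-1 fell from 31.6 ± 4.76 to 6.45 ± 2.15 RPM (SD, n = 3).

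E9 AoD replicate 3 held the most of these transcripts, for instance 60.3 RPM of Pax6 and 12.8 RPM of Msx3. The summed level of the list was 471, 355 and 710 RPM in E9 AoD and 140, 112 and 91.7 RPM in E10 AoD, and without E9 AoD replicate 3 the number called lower was 17. Less expression per cell and a smaller share of neural tube in the E10 AoD pools cannot be told apart. Other genes of the progenitors that lead the falls were Hes3, a Notch effector (at least 76.7-fold lower), Fgf15 (-5.27), Foxb1 (-5.26) and Dbx1 (-5.20, log2 fold changes).

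Neuronal genes went both ways. Of 23 neurogenic and neuronal genes 7 rose and 8 fell. The falls were led by the proneural factors Neurog2 (from 23.2 ± 5.98 to 1.36 ± 0.526 RPM, SD, n = 3) and Neurog1 (from 2.42 ± 1.46 to 0.29 ± 0.0384 RPM, SD, n = 3). The rises included structural genes of axons. Nefm, a neurofilament subunit, was measured at 37.1, 51.7 and 46.8 RPM in the E9 AoD and 239, 262 and 209 RPM in the E10 AoD libraries (log2 fold change 2.39, SE 0.146, adjusted p = 6.92e-09), with 19.2% of its exons overlapping Nefl. Stmn2, a microtubule regulator of growing axons that is also on the sympathoadrenal list, rose from 14.9 ± 2.87 to 38.3 ± 5.85 RPM (SD, n = 3). Scn3b, a sodium channel subunit, rose by 4.52 (adjusted p = 2.12e-09) on the log2 scale.

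Genes of the caudal end of the axis fell next. Of 20 genes of caudal progenitors and presomitic mesoderm, 16 fell and 1 rose, with a median of -2.43. Cdx2, the caudal homeobox factor (ENSMUSG00000029646, chromosome 5, 148112381 to 148118846, minus strand), was measured at 8.87, 4.94 and 10.3 RPM in the E9 AoD and 0.205, 0.125 and 0.0947 RPM in the E10 AoD libraries (log2 fold change -5.03, SE 0.321, adjusted p = 1.03e-08). Its relative Cdx4 was at or below 3 reads in every E10 AoD library and was at least 92-fold lower. The same bound was 34.8-fold for Wnt3a, which maintains the caudal progenitors, and 7.7-fold for Msgn1, of presomitic mesoderm, or 20.3-fold and 3.48-fold without E9 AoD replicate 3. The segmentation genes Dll1 and Lfng fell by 1.69 and 1.31 on the log2 scale. T, brachyury, a caudal progenitor gene that the notochord also expresses, was the member that rose, at 16.6, 14.1 and 15.5 RPM in the E9 AoD and 37.4, 28.6 and 35.8 RPM in the E10 AoD libraries (log2 fold change 1.13, SE 0.193, adjusted p = 0.000156).

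Hox genes fell at both ends of the clusters, and none was called in the middle. Of 14 genes of paralog groups 9 to 13, 12 fell and none rose, with a median of -2.23, and all 14 had every E10 library below every E9 library. Hoxd11 (ENSMUSG00000042499, chromosome 2, 74517449 to 74525798, plus strand) was measured at 19.9, 26.1 and 22.6 RPM in the E9 AoD and 0.179, 0.527 and 0.805 RPM in the E10 AoD libraries (log2 fold change -5.40, SE 0.362, adjusted p = 1.69e-08). Hoxd13 fell from 11.6 ± 4.05 to 0.268 ± 0.147 RPM (SD, n = 3) and Hoxa10 fell from 29.4 ± 3.16 to 6.74 ± 2.73 RPM (SD, n = 3). E10 AoD replicate 2 was lowest for Hoxa9, Hoxa10, Hoxc10 and Hoxd9. Without it 9 of the 14 were called, and Hoxa9, Hoxc10 and Hoxd9 had log2 fold changes of -0.88, -0.93 and -0.87. Hoxd9 was also under the threshold without E9 AoD replicate 1 (-0.99) or E9 AoD replicate 3 (-0.95).

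None of the 11 genes of paralog groups 5 to 8 was called by limma (7 had an unadjusted p under 0.05), and their median log2 fold change was -0.09. Hoxa5, for example, was at 65, 64.2 and 61.6 RPM in E9 AoD and 60.7, 64 and 57.2 RPM in E10 AoD. In groups 1 to 4, 5 of 12 fell. Hoxb1, an early gene of the hindbrain and the caudal axis, was measured at 26.3, 22.7 and 30.1 RPM in the E9 AoD and 0.974, 0.853 and 1.07 RPM in the E10 AoD libraries (log2 fold change -4.63, SE 0.194, adjusted p = 3.27e-10). Hoxd1 fell by 3.13 on the log2 scale, while Hoxd3 and Hoxd4, whose exons overlap those of other genes by 29.8% and 67.4%, fell by less.

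The developmental timing genes of the Lin28 and let-7 pathway fell in 3 of 12 cases. Lin28, an RNA-binding protein that blocks let-7 maturation, was measured at 282, 283 and 300 RPM in the E9 AoD and 41.6, 35.6 and 57.1 RPM in the E10 AoD libraries (log2 fold change -2.71, SE 0.143, adjusted p = 1.91e-09). Lin28b fell from 187 ± 14 to 68.2 ± 5.5 RPM (SD, n = 3) and Mycn fell from 117 ± 11.2 to 54.4 ± 7.81 RPM (SD, n = 3). Hmga2, a let-7 target, was at 354, 469 and 424 RPM in E9 AoD and 426, 455 and 445 RPM in E10 AoD, with overlapping groups.

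Genes of notochord and floor plate did not move as a block. Shh, the ligand secreted by notochord and floor plate (ENSMUSG00000002633, chromosome 5, 28783355 to 28793641, minus strand), was measured at 37.5, 43.8 and 34.4 RPM in the E9 AoD and 124, 113 and 114 RPM in the E10 AoD libraries (log2 fold change 1.60, SE 0.143, adjusted p = 2.73e-07), with 13.4% of its exons overlapping another gene. Noto, of the node and the early notochord, was at least 12.6-fold lower, and Foxa2, of floor plate and notochord, fell from 11.1 ± 0.451 to 3.95 ± 1.89 RPM (SD, n = 3). Of 11 genes 3 rose and 3 fell. Within the Hedgehog pathway 6 of 16 genes rose and 1 fell. Foxf2 and Foxf1a, forkhead targets of Hedgehog signalling in mesenchyme, rose from 7.68 ± 1.41 to 88.7 ± 12.7 RPM and from 4.51 ± 1.46 to 21.7 ± 6.56 RPM (SD, n = 3). Hhip, a Hedgehog-binding target gene, rose by 1.16 (adjusted p = 1.26e-05) on the log2 scale and Cdon, a co-receptor, fell from 66.1 ± 10.4 to 32.7 ± 4.26 RPM (SD, n = 3). Without E10 AoD replicate 1 or E9 AoD replicate 3 Cdon had -0.91 and -0.89, under the threshold, and without E10 AoD replicate 2 the number of falls in the pathway was 2.

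Among genes of neighbouring tissues, more of the gut endoderm and nephric lists fell than rose. Of 15 genes of gut endoderm and liver 10 fell and 1 rose. Epcam, an epithelial adhesion molecule, was measured at 14.3, 13.1 and 12.6 RPM in the E9 AoD and 2.77, 4.74 and 3.24 RPM in the E10 AoD libraries (log2 fold change -1.90, SE 0.136, adjusted p = 3.17e-08). Afp, alpha-fetoprotein of the liver, was at 8.26, 19.7 and 0.641 RPM in E9 AoD, a wide spread, and at 0.384, 0.176 and 0.118 RPM in E10 AoD. Foxa1, a forkhead factor on this list, was the gene that rose, from 4.62 ± 0.592 to 11.1 ± 1.83 RPM (SD, n = 3). Which tissue of the AoD pieces held Foxa1 was not tested. Of 12 nephric genes 6 fell, among them Pax2 (-1.56), Pax8 (-1.64) and Lhx1 (-2.04, log2 fold changes), and 2 rose, Calb1 and Cdh16, neither of which was called after quantile normalization, at a pseudocount of 1 RPM, without E9 AoD replicate 3 (0.69 and 0.68) or without E10 AoD replicate 2 (0.88 and 0.93). E9 AoD replicate 2 was highest in its group for Pax2, Pax8 and Lhx1. Of 12 coelomic and gonadal genes, 2 fell (Emx2 and Upk3b) and 2 rose (Nr5a1 and Amhr2). Neither fall was called without E9 AoD replicate 2 (-0.88 and -0.89) or without E10 AoD replicate 1 (-0.87 and -0.96), 4 falls were called without E9 AoD replicate 3, and Amhr2 had 0.81 without that library. Nr5a1, the steroidogenic factor, was at 1.43, 1.75 and 0.513 RPM in the E9 AoD and 3.59, 4.84 and 3.69 RPM in the E10 AoD libraries. In gut and splanchnic mesenchyme, 4 of 11 fell, led by Tbx4 (from 6.96 ± 3.2 to 0.264 ± 0.0352 RPM, SD, n = 3) and Wnt2 (from 9.02 ± 2.85 to 0.44 ± 0.133 RPM, SD, n = 3), and 3 rose, Foxf2, Foxf1a and Nkx2-3, with 3 falls and 3 rises without E9 AoD replicate 2 or without E10 AoD replicate 1. Nkx2-3, of visceral mesoderm, had 1.05 on the log2 scale, 0.95 without E10 AoD replicate 3 and 0.78 without E9 AoD replicate 3.

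Among signalling genes, Wnt ligands showed the most one-sided picture. Of 17 ligands, 11 fell and none rose, with a median log2 fold change of -2.05. Of these, Wnt1, Wnt2, Wnt2b, Wnt3a and Wnt9b are also counted among the falls of the tissue lists above. Wnt6, an ectodermal ligand, was measured at 16.2, 10 and 19.3 RPM in the E9 AoD and 0.205, 0.728 and 0.521 RPM in the E10 AoD libraries (log2 fold change -4.77, SE 0.343, adjusted p = 3.28e-08). Of 20 inhibitors and targets, 11 fell and 3 rose. The target Sp5 fell from 6.66 ± 1.87 to 1.02 ± 0.0589 RPM (SD, n = 3), and the secreted inhibitors Dkk2, Dkk3 and Wif1 were the genes that rose, Wif1 from 2.05 ± 0.57 to 6.98 ± 0.438 RPM (SD, n = 3). Other secreted inhibitors, Cer1, Notum, Dkk1, Frzb and Sfrp2, were among the falls, Cer1 with a log2 fold change of -4.33. FGF ligands fell in 8 of 17 cases and rose in 4. Fgf8 and the Wnt target Sp5 are also counted among the falls of the caudal list. Fgf15, Fgf17 and Fgf18 led the falls, with log2 fold changes of -5.27, -3.58 and -2.83. The 4 that rose, which include Fgf7 and Fgf11, stayed at low RPM, and without E10 AoD replicate 2 there were 2 (Fgf7 0.97, and 0.98 without E9 AoD replicate 3) and at a pseudocount of 1 RPM none, beside 5 falls. Of 14 FGF receptors and feedback genes only Etv4 was called, falling from 22.5 ± 3.12 to 10.7 ± 1.48 RPM (SD, n = 3), with -0.97 without E10 AoD replicate 1 and -0.97 without E9 AoD replicate 2. Fgfr1 was at 179, 182 and 167 RPM in E9 AoD and 207, 218 and 200 RPM in E10 AoD.

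Of 9 BMP ligands 2 rose and 3 fell. Bmp2 was measured at 6.54, 6.96 and 5.22 RPM in the E9 AoD and 28.6, 24.3 and 31 RPM in the E10 AoD libraries (log2 fold change 2.15, SE 0.123, adjusted p = 3.96e-09). Bmp5 rose from 19.4 ± 2.75 to 46.8 ± 1.17 RPM (SD, n = 3), with 46.7% of its exons overlapping another gene. Bmp4, a ligand known from the ventral AGM region, was at 26.9, 35.2 and 19.7 RPM in E9 AoD and 28.5, 25.5 and 31.1 RPM in E10 AoD, with overlapping groups. Among 17 extracellular antagonists and modulators 4 rose and 3 fell. Bmper, a secreted BMP-binding protein, was measured at 11.6, 14.9 and 7.14 RPM in the E9 AoD and 41, 42 and 45.1 RPM in the E10 AoD libraries (log2 fold change 1.98, SE 0.182, adjusted p = 3.68e-07). Fst, follistatin, fell from 24.4 ± 3.59 to 4.61 ± 0.218 RPM (SD, n = 3), and Grem1, gremlin, fell from 7.93 ± 1.73 to 1.76 ± 0.25 RPM (SD, n = 3). Nog and Chrd had log2 fold changes of 0.01 and -0.01. The number of rises was 2 after quantile normalization or without E9 AoD replicate 3, and 1 at a pseudocount of 1 RPM. Of 12 BMP-SMAD target genes 3 rose (Id4, Id1 and Smad6) and 2 fell (Msx1 and Msx2), with Id1 at 97.1, 56.3 and 50.1 RPM in the E9 AoD and 142, 126 and 161 RPM in the E10 AoD libraries. Without E9 AoD replicate 3 Id1 and Smad6 had 0.94 and 0.89 and Id4 was the rise that was called.

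TGF-beta and activin genes rose in 10 of 19 cases and fell in none, with 6 called at a pseudocount of 1 RPM. Tgfb2 was measured at 15.9, 19.3 and 14.9 RPM in the E9 AoD and 53, 63.2 and 45.2 RPM in the E10 AoD libraries (log2 fold change 1.68, SE 0.134, adjusted p = 9.23e-08). Tgfb1 rose from 8.57 ± 1.57 to 21.7 ± 1.14 RPM and its receptor Tgfbr2 from 15.9 ± 1.44 to 35.8 ± 2.3 RPM (SD, n = 3). In the Notch pathway 6 of 22 genes fell and 2 rose, the target gene Heyl with a log2 change of 1.22 (adjusted p = 5.64e-07) and the arterial ligand Dll4, the latter at the threshold as described. Of the falls, Hes3 and Hes5 are also counted on the neural tube list and Hes7, Dll1 and Lfng on the caudal list. In retinoic acid metabolism, the synthetic enzymes moved in opposite ways, with Aldh1a2 at 139, 167 and 150 RPM in the E9 AoD and 34.7, 51.4 and 44.3 RPM in the E10 AoD libraries and Aldh1a3 at 2.97, 4.76 and 2.14 RPM in the E9 AoD and 19.7, 17.3 and 20.2 RPM in the E10 AoD libraries. Their log2 fold changes were -1.82 (adjusted p = 4.62e-09) and 2.57 (adjusted p = 1.07e-06). In total 2 of 18 genes of that pathway rose and 2 fell, with 1 and 1 called without E9 AoD replicate 3 and 4 rises without E10 AoD replicate 3.

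Growth factors of the IGF family are among the most abundant transcripts that changed. Igf2, a fetal growth factor, was measured at 2430, 2880 and 1970 RPM in the E9 AoD and 5960, 6020 and 5780 RPM in the E10 AoD libraries (log2 fold change 1.30, SE 0.0975, adjusted p = 4.71e-08). H19, the non-coding RNA transcribed next to it, rose from 3950 ± 796 to 8300 ± 215 RPM (SD, n = 3), a log2 fold change of 1.09, or 0.91 without E9 AoD replicate 3. Cdkn1c, the imprinted CDK inhibitor p57, rose from 298 ± 42 to 975 ± 60.6 RPM (SD, n = 3). Of 19 genes of the group, 6 rose and none fell, although 1 fall was called without E9 AoD replicate 2, E9 AoD replicate 3 or E10 AoD replicate 1. Of 8 renin-angiotensin genes, 3 rose, Agtr2, Ace and Agtr1a, the last with 1.05 on the log2 scale and 0.95 to 0.997 without E9 AoD replicate 1 or 3 or E10 AoD replicate 1 or 3. Ace, angiotensin-converting enzyme, was measured at 1.01, 1.37 and 0.829 RPM in the E9 AoD and 6.52, 6.44 and 5.58 RPM in the E10 AoD libraries (log2 fold change 2.45, SE 0.148, adjusted p = 6.47e-09). Among 21 niche cytokines and chemokines, 6 rose and 2 fell, with 3 rises left at a pseudocount of 1 RPM. Cxcl12, the chemokine that retains hematopoietic cells in their niche (ENSMUSG00000061353, chromosome 6, 117118553 to 117131385, plus strand), was measured at 330, 444 and 293 RPM in the E9 AoD and 1350, 1320 and 1330 RPM in the E10 AoD libraries (log2 fold change 1.93, SE 0.109, adjusted p = 3.55e-09). Its receptors Cxcr4 and Cxcr7 had log2 fold changes of -0.60 and -0.70, under the threshold, and Pdgfa fell from 26 ± 3.24 to 8.55 ± 1.35 RPM (SD, n = 3).

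The immediate early genes were the list in which every member rose. Immediate early genes are transcribed within minutes of growth factor, mechanical or handling stimuli from factors already in the cell. All 19 were higher at E10.5, with a median of 2.16, and all 19 stayed called without each library, under each scaling and at a pseudocount of 1 RPM. Fos (ENSMUSG00000021250, chromosome 12, 86814840 to 86818223, plus strand) was measured at 243, 93.7 and 107 RPM in the E9 AoD and 999, 785 and 1080 RPM in the E10 AoD libraries (log2 fold change 2.81, SE 0.349, adjusted p = 7.66e-06). Jun was measured at 484, 231 and 173 RPM in the E9 AoD and 1530, 1360 and 1650 RPM in the E10 AoD libraries (log2 fold change 2.49, SE 0.33, adjusted p = 1.45e-05). Egr1 rose from 202 ± 66 to 920 ± 121 RPM (SD, n = 3), and Klf2, a factor that blood flow induces in endothelium, was measured at 37.9, 11.1 and 11.6 RPM in the E9 AoD and 168, 145 and 180 RPM in the E10 AoD libraries. The summed level of the list was 1760, 944 and 932 RPM in E9 AoD and 6120, 4990 and 6340 RPM in E10 AoD, so that E9 AoD replicate 1 held more than the other E9 libraries and less than any E10 library. The heat shock genes were split. Of 10, the inducible Hspa1a, Hspa1b and Hspb1 rose, Hspa1a from 3.7 ± 1.35 to 12.3 ± 2.46 RPM (SD, n = 3), and none was called lower. Their median log2 fold change was -0.21, 5 of 10 had all E10 libraries below all E9 libraries, and the summed level was 4760, 4720 and 4920 RPM in E9 AoD and 3450, 3140 and 3550 RPM in E10 AoD. Hsph1, a chaperone, was at 312, 338 and 360 RPM in E9 AoD and 212, 186 and 207 RPM in E10 AoD, a log2 change of -0.74 (adjusted p = 5.05e-07), smaller than the fold a call needs.

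Promoters of the immediate early genes were read from RefSeq (GRCm38.p6, another build than that of the expression values), 250 bases upstream of each start, and searched on both strands for 3 motifs. For the CArG box, the site of serum response factor, 5 of 18 windows of the 14 matched immediate early genes held a match (27.8%), against 1.47% of 32851 windows of all genes. The windows came from Egr2, which has overlapping windows, and from Zfp36, so the share of windows counts a site more than once. By gene, 2 of the 14 held a match, against 439 of 27025 for all genes. A stretch of each is printed because both genes rose, Egr2 from 3.52, 2.63 and 3.81 RPM in E9 AoD to 12.8, 10.6 and 10.9 RPM in E10 AoD and Zfp36 from 15.0, 10.6 and 11.7 RPM to 82.2, 58.9 and 75.8 RPM. TGACGTCA, the cyclic AMP response element, was in 2 windows (11.1% against 1.55%), those of Btg2 and Dusp1. In 13 windows of smooth muscle genes the CArG box was found in 1 (7.69%), that of Myl9. Capitals mark the matched CArG box, and a match describes the letters and is no evidence of binding.
Egr2 promoter, chr10:67537466-67537565, plus strand: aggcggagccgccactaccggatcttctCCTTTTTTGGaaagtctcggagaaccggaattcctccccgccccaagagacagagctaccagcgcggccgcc
Zfp36 promoter, chr7:28379229-28379328, minus strand: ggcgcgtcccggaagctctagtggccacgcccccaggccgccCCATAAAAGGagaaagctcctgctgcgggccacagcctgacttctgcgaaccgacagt

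Some genes of glucose uptake and glycolysis fell. Of 24 genes of glycolysis and the hypoxia response 7 fell and 1 rose, with a median of -0.83, and 17 had all E10 libraries below all E9 libraries. The gene that rose was Ndufa4l2, described with the pericyte genes, whose log2 fold change of 4.67 was the highest of the list. Slc2a3, the glucose transporter GLUT3 (ENSMUSG00000003153, chromosome 6, 122677827 to 122751658, minus strand), was measured at 140, 139 and 210 RPM in the E9 AoD and 16.7, 17.2 and 17.1 RPM in the E10 AoD libraries (log2 fold change -3.23, SE 0.115, adjusted p = 8.08e-11). Slc2a1, the transporter GLUT1, was measured at 337, 298 and 441 RPM in the E9 AoD and 88.9, 75.6 and 82.5 RPM in the E10 AoD libraries (log2 fold change -2.11, SE 0.102, adjusted p = 1.02e-09). Ldha, lactate dehydrogenase A, fell from 1520 ± 122 to 581 ± 40.6 RPM (SD, n = 3), and Slc16a3, the lactate exporter MCT4, fell from 126 ± 14.3 to 34.8 ± 0.777 RPM (SD, n = 3). Hk2, hexokinase 2, was at 103, 119 and 133 RPM in E9 AoD and at 43.4, 40.5 and 38.8 RPM in E10 AoD. Eno1 and Pdk1 were at the edge of the threshold, with log2 fold changes of -1.01 and -1.07, or -0.96 and -0.98 without E9 AoD replicate 3, and Eno1 -0.95 without E10 AoD replicate 2. Hexokinase 1, Hk1, was at 35.1, 33 and 32.9 RPM in E9 AoD and 45, 50.1 and 44.8 RPM in E10 AoD, so the fall did not cover every step. The list summed to 9550, 9170 and 10200 RPM in E9 AoD and 4910, 4630 and 4980 RPM in E10 AoD.

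The core letters ACGTG of the hypoxia response element were in 15 of 32 promoter windows of glycolysis and hypoxia genes (46.9%), from 13 of 21 matched genes, against 16.6% of all windows. The share was 22.2% for the immediate early and 15.4% for the smooth muscle windows. Of the 13 genes, Hk2, Ldha, Slc16a3 and Slc2a1 were called lower and the others were not called. Slc2a3, Pdk1 and Eno1 fell and are not among the 13. The list includes hypoxia response genes by design, so its share is a description, and a link of the letters to the falls was not tested. Stretches of the windows of 3 genes that fell and hold the letters are printed, with the match in capitals. These letters also occur in windows of other genes, and a match describes the letters and is no evidence of binding.
Ldha promoter, chr7:46845639-46845784, plus strand: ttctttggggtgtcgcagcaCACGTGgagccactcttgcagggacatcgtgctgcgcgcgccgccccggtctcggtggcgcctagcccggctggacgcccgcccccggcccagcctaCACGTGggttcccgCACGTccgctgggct
Slc2a1 promoter, chr4:119108645-119108744, plus strand: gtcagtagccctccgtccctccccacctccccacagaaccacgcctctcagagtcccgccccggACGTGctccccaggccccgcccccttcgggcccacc
Hk2 promoter, chr6:82774492-82774700, minus strand: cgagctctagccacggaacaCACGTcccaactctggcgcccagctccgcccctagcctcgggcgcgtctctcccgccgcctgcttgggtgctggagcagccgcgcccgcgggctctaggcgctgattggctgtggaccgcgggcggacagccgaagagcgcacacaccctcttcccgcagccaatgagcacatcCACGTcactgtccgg

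Cell cycle genes shifted by less than the threshold. None of 23 was called by limma, 21 had an unadjusted p under 0.05, and their median log2 fold change was -0.30 and 19 had all E10 libraries below all E9 libraries. Top2a, topoisomerase of dividing cells, was at 697, 785 and 814 RPM in E9 AoD and 612, 667 and 631 RPM in E10 AoD, a log2 change of -0.26 (adjusted p = 0.00206). Mki67, a proliferation marker, was at 657, 657 and 637 RPM and 436, 670 and 469 RPM, and its groups overlapped through E10 AoD replicate 2. Of 5 CDK inhibitors 2 rose, Cdkn1c and, by 1.44 (adjusted p = 2.96e-05) on the log2 scale, Cdkn2c, while Cdkn1b had a log2 fold change of 0.78 and Cdkn1a of 0.24.

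**Figure D4:**
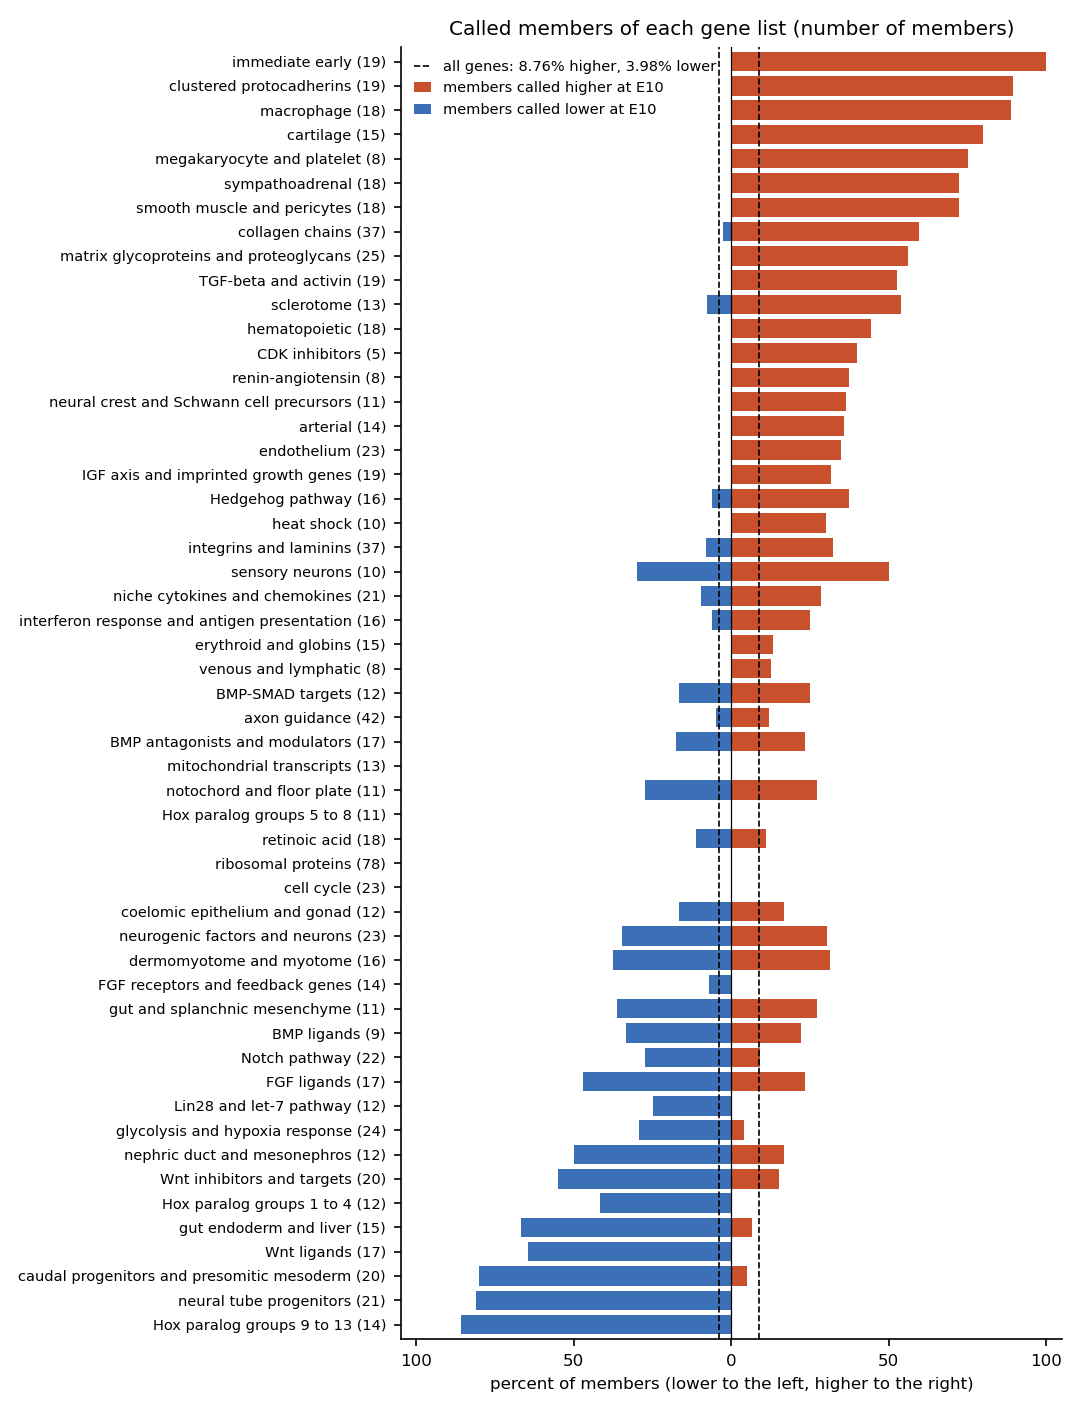
Percent of the members of each gene list (number of members in brackets, ordered by the share called higher minus the share called lower) called higher at E10.5 (red, to the right) or lower (blue, to the left), with dashed lines at the share over all genes, 8.76% higher and 3.98% lower. Immediate early, protocadherin, macrophage and cartilage lists lie at the top and posterior Hox, neural tube and caudal lists at the bottom. The germ cell list and the X inactivation and Y-linked list are not drawn.

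The change with stage in AoD was set against that in the ventral part (AoV, 3 libraries per stage) by the interaction term, the change in AoV minus that in AoD. The changes in AoV and in AoD share no library. The interaction does use the AoD libraries by which genes are called higher or lower in AoD, which favours an interaction of the opposite sign, so the counts by direction are descriptions. The interaction was called for 1654 genes (9.39%), in 618 (3.51%) toward a higher and in 1036 (5.88%) toward a lower change in AoV. Of the 1543 genes higher in E10 AoD, 613 had a lower change in AoV and 46 a higher one, and of the 702 lower genes 269 had a higher and 50 a lower change. In AoV 575 of the 1543 were also called higher and 304 of the 702 also lower, while 71 and 27 were called in the opposite direction.

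Skeletal, sympathetic and vessel wall genes were among those that rose by more in AoD than in AoV. An interaction toward a lower change in AoV was called for 20 of 37 collagens, 11 of 15 cartilage genes, 11 of 18 sympathoadrenal genes and 9 of 18 smooth muscle genes, against 1, 1, 1 and 0 toward a higher one. Acta2 went from 268 ± 10.8 to 337 ± 22.3 RPM in AoV (SD, n = 3), an interaction of -2.77 (SE 0.338, adjusted p = 2.5e-05) on the log2 scale. Col9a2 went from 4.84 ± 0.515 to 3.99 ± 0.358 RPM in AoV, an interaction of -3.21 (SE 0.206, adjusted p = 6.63e-08). Dbh also rose in AoV, from 0.387 ± 0.063 to 16.7 ± 3.8 RPM, an interaction of -1.98 (SE 0.284, adjusted p = 0.000108). Igf2 went from 4680 ± 200 to 4670 ± 98.7 RPM in AoV, an interaction of -1.31 (SE 0.138, adjusted p = 6.48e-06). Of the 19 immediate early genes 1, Ctgf, had a called interaction. Of 21 neural tube genes, 12 had an interaction called toward a higher change in AoV and 2 toward a lower one. For genes of this list that are low in AoV, such as Msx3, Dbx1 and Hes3, its size depends on the pseudocount. It does not show that their folds differed. Pax6 was among the 12, with an interaction of 2.81 (SE 0.42, adjusted p = 0.000148).

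**Figure D5:**
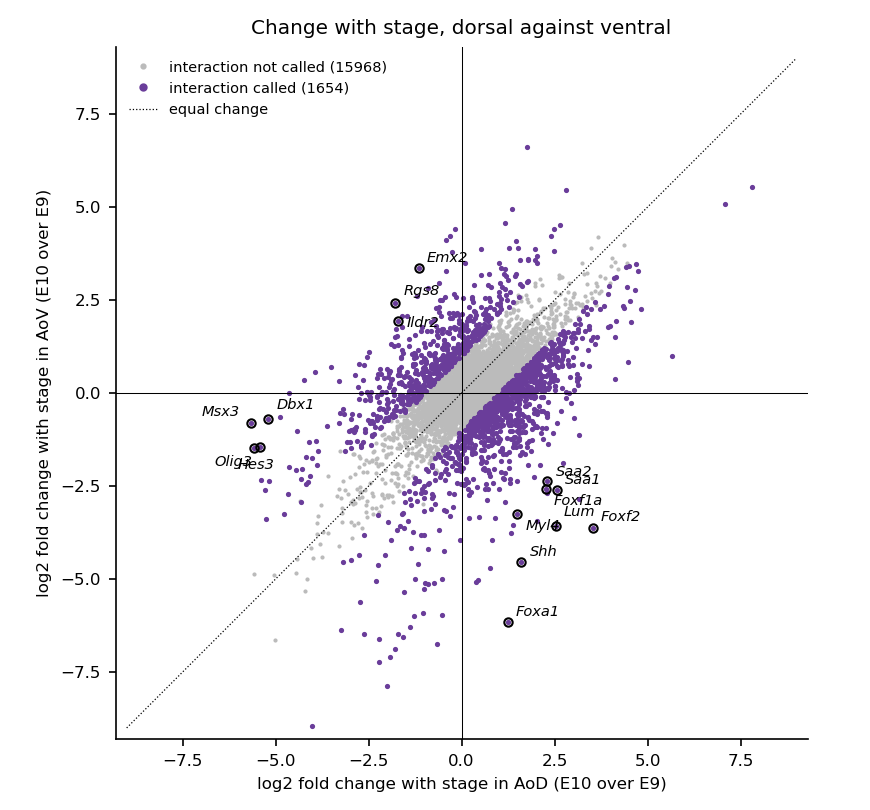
The log2 fold change with stage in AoV (vertical axis) is plotted against that in AoD (horizontal axis) for 17622 genes, with the 1654 genes of a called interaction in purple and the line of equal change dotted. The 15 genes labelled are among those with the largest called interaction opposite to their change in AoD, with Foxa1, Shh and Foxf2 at the lower right and Msx3, Dbx1 and Hes3 at the left.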

How the data were processed

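RNA from dissected C57BL/6 mouse tissue was sequenced with a kit that does not mark strand, and the replicates were pools from separate experiments. As described in the study's methods and per the labels, the authors aligned reads with TopHat and Bowtie 0.12.3 to the mouse genome and summarized them per Ensembl gene in GeneProf, which divides reads that map to several places. The deposited table holds RPM (reads of a gene scaled to a common total of assigned reads) for 28876 genes. Its 12 other columns, the authors' log2 fold changes and adjusted p-values for 6 contrasts from DESeq, were not used. Whole reads could not be recovered from the RPM steps, since 64.0% to 66.8% of low values were whole multiples, so no count test was run. The level of 3 reads was 0.0641 to 0.0806 RPM, and depth limits cover counting error only.

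The 18553 genes that reached 0.5 RPM in 1 or more of the 15 libraries were fitted with limma 3.58.1 in R 4.3.3 on log2(RPM + 0.1), with 1 mean per group and an intensity trend (10 residual degrees of freedom). Fold changes are on that scale, which understates the change of low genes. Genes were called at a Benjamini-Hochberg adjusted p under 0.05 over all genes fitted and a log2 fold change of at least 1 in size. The code of the fit was checked on simulated data, drawn as independent normal log2 values with the spread of the real fit. Changes were not placed in low genes, so the check does not bear on them or on differences between libraries.

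Genes were named by a rule. It took the 15 highest and 15 lowest log2 fold changes among called protein-coding genes with separate ranges and at least 5 RPM in the higher group, the 8 largest RPM differences and the 8 largest opposite interactions in each direction. From each list it took all called genes where at most 6 were called, otherwise the 3 highest and 3 lowest, and the first 3 of the list. Th, Hk2, Egr2 and Zfp36 fall outside it and were chosen after their values were seen, and some genes that the rule names are not reported here. The members and lists were chosen with earlier results of these data known. Coordinates are those of NCBIM37, in which 97.486% of the genes compared were annotated, and overlaps were taken from the same annotation. Alternatives were another pseudocount, filter, scaling, set of groups, threshold and variance model, library weights, a replicate block and leaving out each library.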

Additional observations from a re-analysis of the deposited data

Results flagged for a closer look

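For 15 genes the change with stage differed between AoD and AoV, by the interaction test in limma and with opposite signs of the interaction and of the change in AoD. They are among the 8 largest such interactions in each direction among genes with separate ranges in AoD. They were chosen by their change in AoD, whose libraries the interaction also uses. Groups of 3 libraries were not searched for single outlying libraries.

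Among the genes that rose in AoD, 8 had lower means in E10 AoV than in E9 AoV. Foxa1, a forkhead factor of the endoderm list, went from 4.62 ± 0.592 to 11.1 ± 1.83 RPM in AoD and from 51.5 ± 9.97 to 0.621 ± 0.15 RPM in AoV (SD, n = 3), an interaction of -7.40 (SE 0.282, adjusted p = 6.86e-10) on the log2 scale. Foxf2 went from 51.2 ± 7.06 to 4.05 ± 0.161 RPM in AoV, with -7.14 (SE 0.25, adjusted p = 2.76e-10), and its relative Foxf1a from 67.4 ± 7.91 to 11.2 ± 0.551 RPM, with -4.83 (SE 0.348, adjusted p = 1.99e-07). Shh went from 42.1 ± 8.5 to 1.7 ± 0.241 RPM in AoV, with -6.15 (SE 0.202, adjusted p = 2.06e-10). The values for Lum, a matrix proteoglycan, were 176 ± 13.6 to 14.7 ± 1.79 RPM in AoV and -6.11 (SE 0.344, adjusted p = 2.53e-08). Myl4, an atrial and embryonic myosin light chain, had 19.6 ± 2.93 to 1.98 ± 0.168 RPM and -4.74 (SE 0.347, adjusted p = 2.31e-07). The acute phase genes Saa1 and Saa2 had interactions of -5.17 (SE 0.338, adjusted p = 8.09e-08) and -4.66 (SE 0.239, adjusted p = 1.52e-08), and 10.8% and 9.09% of the 50-base windows of their exons are shared with other genes.

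Among the genes that fell in AoD, 4 neural factors had means of 0.559 RPM or less in AoV at either stage. Msx3 went from 6.73 ± 5.45 to 0.00853 ± 0.0148 RPM in AoD and from 0.156 ± 0.0978 to 0.043 ± 0.0395 RPM in AoV (SD, n = 3), an interaction of 4.86 (SE 0.681, adjusted p = 8.62e-05). The interactions of Dbx1, Hes3 and Olig3 were 4.50 (SE 0.658, adjusted p = 0.000125), 4.1 (SE 0.413, adjusted p = 4.14e-06) and 3.95 (SE 0.637, adjusted p = 0.000281). The sizes of these 4 interactions depend on the pseudocount of 0.1 RPM, since every E10 AoD library, except replicate 1 for Dbx1, was at or below the level of 3 reads, and they do not show that the folds differed. The other 3 had higher means in E10 AoV than in E9 AoV. Emx2, of the urogenital ridge, went from 4.55 ± 0.916 to 47.3 ± 5.16 RPM, with 4.52 (SE 0.361, adjusted p = 5e-07). Rgs8, a regulator of G protein signalling, went from 0.813 ± 0.123 to 4.84 ± 1.12 RPM, with 4.2 (SE 0.247, adjusted p = 3.36e-08). Ildr2, an immunoglobulin-like receptor, went from 12.9 ± 0.404 to 49.8 ± 2.07 RPM, with 3.64 (SE 0.202, adjusted p = 2.33e-08), and 11% of its exons overlap another gene.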

How the results depend on the processing

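No setting called a gene in the direction opposite to the one reported among the 358 named genes. The numbers of genes called in AoD (2245, with 1543 higher and 702 lower) stayed within 1.5 times under the other scalings, filters, groups fitted, variance models and library weights and at a pseudocount of 0.5 RPM. At a pseudocount of 1 RPM they were 1281, 878 and 403, and the interaction was called for 1070 genes, 656 of them lower. Without the fold threshold there were 10500 genes, 5425 higher and 5075 lower, and 4806, 2037 and 2769 for the interaction. With limma's treat, which tests against a 2-fold change, there were 1021, 703 and 318 in AoD and 507, 177 and 330 for the interaction. Quantile normalization moved the share of rises among the calls from 68.7% to 61.2% and the median of all genes to -0.053. Leaving out 1 library gave 2114 to 2378 calls in AoD, 1437 to 1635 higher and 677 to 743 lower, and 1543 to 1709 for the interaction (577 to 636 higher, 951 to 1101 lower). With a replicate block 2247 genes were called (1543 higher, 704 lower) and 1671 for the interaction. Libraries of the same number were correlated in their deviations by 0.077, 0.186 and -0.060, so that the numbers were not shown to pair them, and the block ended the call of 1 named gene. Of the 294 named genes that were called, 42 lost the call without some library, 53 at a pseudocount of 1 RPM and 122 with treat. Depth limits genes below about 0.08 RPM, and 3 pools per stage give no estimate of the spread between embryos.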

Other observations

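Clustered protocadherins, adhesion proteins of neural and other cells, were higher in 17 of 19 cases and lower in none, with a median log2 fold change of 1.57 beside -0.004 for all genes, and all 19 had separate ranges. Pcdhb3 was measured at 0.26, 0.461 and 0.204 RPM in the E9 AoD and 1.53, 1.62 and 1.49 RPM in the E10 AoD libraries (log2 fold change 2.06, SE 0.265, adjusted p = 1.07e-05). Most were at low RPM, and 2 were called at a pseudocount of 1 RPM. Of 42 axon guidance genes 5 rose (Plxna4, Efna1, Efnb2, Slit3 and Ntn4) and 2 fell (Sema3e and Unc5a). Slit3 had 1.05 on the log2 scale and 0.97 without E9 AoD replicate 3, and Ntn4 1.03 and 0.99 without E10 AoD replicate 1 or 3. Of 37 integrins and laminins 12 rose and 3 fell. Itga11, a collagen receptor of mesenchyme, rose from 2.01 ± 0.246 to 13.9 ± 3.11 RPM (SD, n = 3), and Lama5, a laminin chain of epithelial basement membranes, fell from 96.9 ± 1.03 to 29 ± 3.42 RPM (SD, n = 3).

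Of 16 genes of the interferon response and antigen presentation 4 rose, namely Psmb8, Irf1, Bst2 and B2m, and 1 fell. Psmb8, an immunoproteasome subunit, was measured at 0, 0.0269 and 0.107 RPM in the E9 AoD and 0.436, 0.627 and 0.521 RPM in the E10 AoD libraries (log2 fold change 2.18, SE 0.244, adjusted p = 2.75e-06). Ifitm1, a membrane protein also present in early mesoderm, was the gene that fell, at 24.5, 28.2 and 20.7 RPM in the E9 AoD and 1.46, 1.51 and 1.63 RPM in the E10 AoD libraries (log2 fold change -3.90, SE 0.119, adjusted p = 1.9e-11). Among 6 germ cell genes Sall4 and Prdm1 fell and none rose. None of the 78 ribosomal protein genes was called by limma, 67 had an unadjusted p under 0.05, 63 had every E10 library below every E9 library, and their median was -0.21. None of 13 mitochondrial transcripts was called, 11 had an unadjusted p under 0.05, with a median of 0.53.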
